A study of Mus musculus with 40 samples.

Results

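Histone H3 trimethylated at lysine 4 (H3K4me3) marks the start sites of genes, and H3 acetylated at lysine 27 (H3K27ac) marks promoters and enhancers that are in use. The promoters described here carried the first mark in every mouse and the second in none. They were chosen by the peak lists themselves: H3K4me3 peaks of 8 lists were merged, and a region was kept when it had a peak in all 8 lists, lay within 1000 bp of the start of a protein-coding transcript and overlapped no H3K27ac peak in any of 8 H3K27ac lists. Of 28739 merged regions, 9842 were in all 8 lists and 8628 of these were at a protein-coding start. Of these 8628 promoters, 497 had no H3K27ac peak (5.76%), and they lay near the starts of 529 genes. They are compared with the 3169 promoters that had H3K27ac in 7 or 8 lists.

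The chromatin came from brown adipose tissue, labelled iBAT, of wild type C57BL/6N mice. According to the study's methods, tissue of a pair of animals went into each experiment. The labels give every library 1 mouse number, and a mouse below means the library of that number. Those methods describe interscapular fat, whereas the series' design text gives inguinal. Mice 1 and 2 were warm on chow (NCD), mice 4 and 5 cold on NCD, mice 7 and 8 warm on a high-fat diet (HFD), and mice 10 and 11 cold on HFD. Cold was 4 °C for 24 h, HFD was given for 12 weeks from 8 weeks of age, and the mice were 20 weeks old. Mouse 7 had the shortest lists of H3K27ac (3224 peaks) and H3K4me3 (13517 peaks), and mouse 11 the longest, with 40604 and 24104 peaks. As a check of the tissue, 8 of 9 recurrent promoters of brown adipocyte marker genes and 11 of 11 of general adipocyte markers had H3K27ac in 7 or 8 lists. So had 3169 of all 8628 promoters and 6 of 8 of endothelial markers, so this trait is not particular to fat cell genes.

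H3K4me3 is deposited at most promoters rich in CpG dinucleotides, including those of genes that are little transcribed, so the mark alone does not tell how active a gene is. Acetylation at lysine 27 opposes methylation of the same residue, since a lysine carries one or the other. Trimethylation there (H3K27me3) is laid down by Polycomb complexes at silent developmental genes, and monomethylation of lysine 4 (H3K4me1) is found at enhancers and on the flanks of promoters. A missing peak means that acetylation was not detectable at the depth of these lists. H3K27ac peaks were found at 9.27% of the 8628 promoters in mouse 7 and 39.3% in mouse 10, and at 66.4% to 88.6% in the other mice.

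Of these promoters 7 are printed first, with that of Ucp1 for comparison, because they stand for the kinds of start site that the selection held: the widest (Pcdh17), the one of highest fold (Utp20), one with H3K27me3 (Mapk11), zinc finger genes (Zfp61, Zfp781), and genes of cilia (Ift122) and of cell division (Plk1). Each sequence runs 5′ to 3′ on the strand of the gene, from 250 bases before to 50 bases after the start site, and was read from GRCm38. Capitals mark CCAAT, the core of the site bound by the factor NF-Y, in either orientation (CCAAT or ATTGG).
Pcdh17, chr14:84443313-84443612, plus strand: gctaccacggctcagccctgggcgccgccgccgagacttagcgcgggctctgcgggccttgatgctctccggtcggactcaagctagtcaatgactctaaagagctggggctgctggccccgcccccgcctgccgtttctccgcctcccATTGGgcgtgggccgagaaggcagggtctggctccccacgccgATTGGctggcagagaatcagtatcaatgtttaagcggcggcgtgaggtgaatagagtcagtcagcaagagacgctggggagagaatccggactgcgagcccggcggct
Utp20, chr10:88826755-88827054, minus strand: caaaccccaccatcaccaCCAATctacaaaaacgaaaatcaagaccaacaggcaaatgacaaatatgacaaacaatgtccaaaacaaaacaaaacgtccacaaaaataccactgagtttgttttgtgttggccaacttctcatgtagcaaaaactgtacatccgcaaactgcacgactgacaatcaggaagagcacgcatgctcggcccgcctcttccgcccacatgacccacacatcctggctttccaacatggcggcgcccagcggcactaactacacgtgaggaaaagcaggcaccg
Mapk11, chr15:89149579-89149878, minus strand: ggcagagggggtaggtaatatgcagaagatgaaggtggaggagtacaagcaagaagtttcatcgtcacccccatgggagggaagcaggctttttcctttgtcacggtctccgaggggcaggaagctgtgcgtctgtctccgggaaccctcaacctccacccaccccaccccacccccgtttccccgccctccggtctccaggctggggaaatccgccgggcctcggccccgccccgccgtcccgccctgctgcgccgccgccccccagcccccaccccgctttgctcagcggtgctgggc
Zfp61, chr7:24299626-24299925, minus strand: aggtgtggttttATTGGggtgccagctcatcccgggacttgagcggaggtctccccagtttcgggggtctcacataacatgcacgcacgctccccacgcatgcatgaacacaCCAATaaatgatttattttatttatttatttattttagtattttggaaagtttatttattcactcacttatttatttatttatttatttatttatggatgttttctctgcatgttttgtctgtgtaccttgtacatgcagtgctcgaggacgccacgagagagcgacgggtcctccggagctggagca
Zfp781, chr10:81930431-81930730, minus strand: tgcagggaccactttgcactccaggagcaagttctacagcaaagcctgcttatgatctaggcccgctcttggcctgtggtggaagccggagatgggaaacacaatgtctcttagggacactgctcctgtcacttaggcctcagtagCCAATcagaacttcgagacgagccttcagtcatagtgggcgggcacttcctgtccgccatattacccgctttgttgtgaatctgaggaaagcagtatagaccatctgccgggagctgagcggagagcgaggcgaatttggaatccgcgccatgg
Ift122, chr6:115853385-115853684, plus strand: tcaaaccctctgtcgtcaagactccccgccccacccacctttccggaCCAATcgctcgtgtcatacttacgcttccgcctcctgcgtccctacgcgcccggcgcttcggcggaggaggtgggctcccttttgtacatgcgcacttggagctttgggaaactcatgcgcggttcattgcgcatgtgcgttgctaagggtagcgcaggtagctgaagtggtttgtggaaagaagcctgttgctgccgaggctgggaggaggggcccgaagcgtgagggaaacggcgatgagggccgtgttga
Plk1, chr7:122159189-122159488, plus strand: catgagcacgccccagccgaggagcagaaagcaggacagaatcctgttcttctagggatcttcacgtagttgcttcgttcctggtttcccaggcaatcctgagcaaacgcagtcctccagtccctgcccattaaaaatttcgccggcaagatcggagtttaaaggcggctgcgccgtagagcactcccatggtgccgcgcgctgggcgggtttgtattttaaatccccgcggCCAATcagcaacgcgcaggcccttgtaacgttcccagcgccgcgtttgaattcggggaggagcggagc
Ucp1 (H3K27ac in all 8 lists), chr8:83290102-83290401, plus strand: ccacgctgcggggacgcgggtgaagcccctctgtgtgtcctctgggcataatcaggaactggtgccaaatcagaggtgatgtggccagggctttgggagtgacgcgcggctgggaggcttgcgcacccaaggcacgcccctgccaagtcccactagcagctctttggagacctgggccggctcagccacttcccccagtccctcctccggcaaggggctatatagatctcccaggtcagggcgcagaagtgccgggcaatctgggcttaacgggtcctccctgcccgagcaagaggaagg

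The 497 promoters carried narrower H3K4me3 than the promoters with H3K27ac. Covered bases are the summed length of the H3K4me3 peaks of 1 mouse inside a region. Their median over the 497 was 1152 bp in mouse 1, 1116 bp in mouse 2, 893 bp in mouse 4, 1007 bp in mouse 5, 462 bp in mouse 7, 986 bp in mouse 8, 828 bp in mouse 10 and 1224 bp in mouse 11. The medians of the H3K27ac-bearing promoters in the same order were 2184, 2193, 1621, 1792, 1261, 2096, 1836 and 2507 bp. The H3K27ac-free set was the narrower one in 8 of 8 mice, at 0.491 ± 0.0631 times the width of the other (SD, n = 8), a mean log2 ratio of -1.04 ± 0.20. The ratio was lowest in mouse 7, at 0.366, and between 0.451 and 0.562 in the other mice. On average 95.5% of the 497 lay below the median width of the H3K27ac-bearing set in the same mouse. These widths are a description with no test, because a narrow region has less room to overlap an H3K27ac peak and so width is not independent of the selection.

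**Figure D1:**
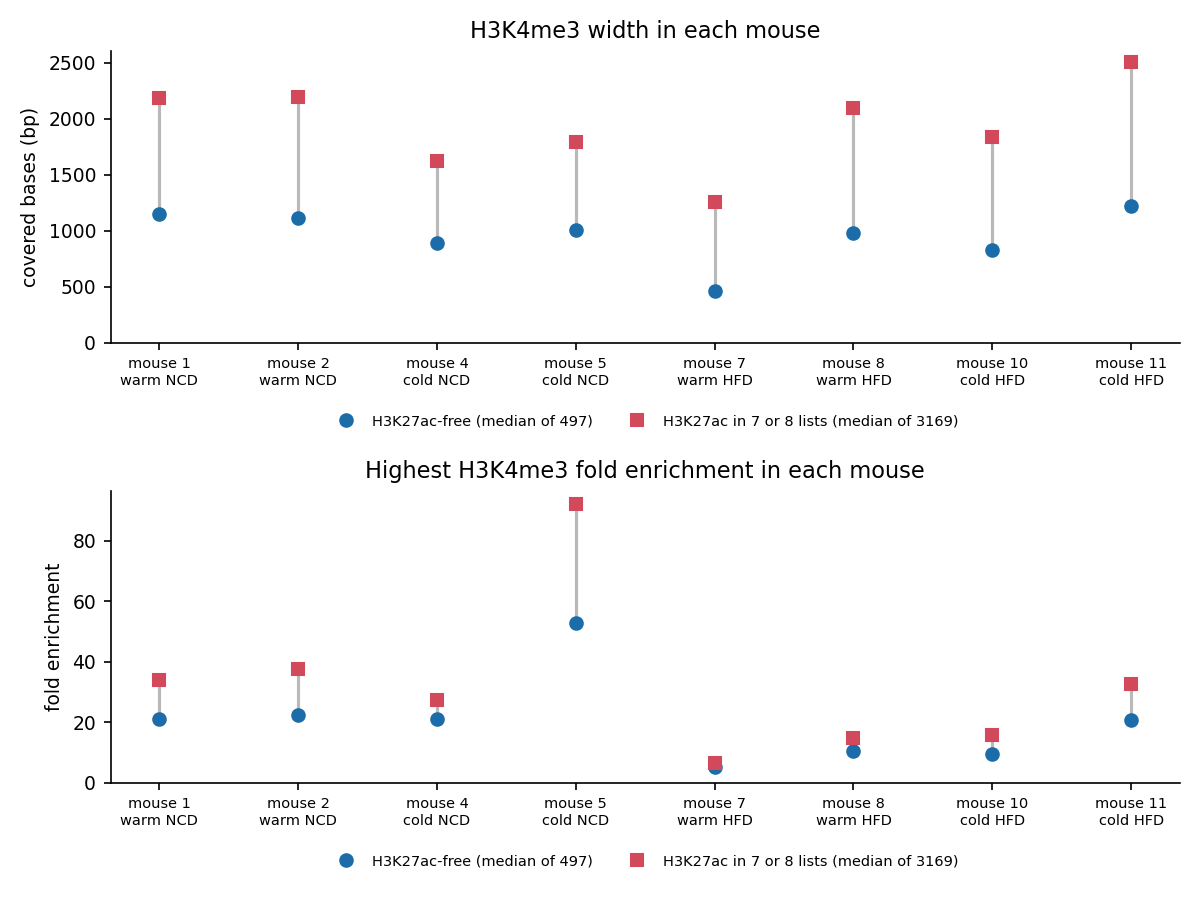
Median H3K4me3 covered bases (bp, upper panel) and median of the highest H3K4me3 fold enrichment (lower panel) in each of 8 mice, for 497 H3K27ac-free promoters (circles) and 3169 promoters with H3K27ac in 7 or 8 lists (squares), with a line joining both sets of 1 mouse. The circle lies below the square in all 8 mice in both panels, and mouse 7 has the lowest values of width (462 and 1261 bp) and of fold (5.10 and 6.54).

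H3K4me3 was also lower in height at these promoters. The highest fold enrichment in a region, a ratio of ChIP signal to local background, had a median over the 497 of 21.1, 22.5, 21.2, 53.0, 5.10, 10.5, 9.51 and 20.8 in mice 1, 2, 4, 5, 7, 8, 10 and 11. In the H3K27ac-bearing set it was 33.8, 37.8, 27.5, 92.2, 6.54, 15.0, 15.9 and 32.6. The H3K27ac-free set was lower in 8 of 8 mice, by a mean log2 ratio of -0.61 ± 0.17 (SD, n = 8). Fold values depend on the depth of a library and were compared within each mouse. Without mouse 7, in the selection and in the values, the mean log2 ratio of fold was -1.07.

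Width rose with the number of H3K27ac lists, from the selected promoters to those with all 8. The median width over mice had a median of 996 bp at promoters with no H3K27ac list, 1132 bp at the 284 with 1 list, 1348 bp at the 754 with 4 lists and 2440 bp at the 777 with all 8. The fold rose from 18.5 with no list to 21.3 with 1 list, 22.1 with 2 lists and 28.2 with 8 lists. Of the 284 promoters just outside the selection, the single H3K27ac peak was in mouse 11 for 86, in mouse 2 for 80, in mouse 5 for 65, in mouse 8 for 31, in mouse 4 for 21 and in mouse 1 for 1. It was in mouse 7 or mouse 10 for none. The widest of them were Mycn (4003 bp, H3K27ac in mouse 2), which encodes a growth-promoting transcription factor, Zfp462 (2527 bp, mouse 2) and Stox2 (2488 bp, mouse 5).

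**Figure D2:**
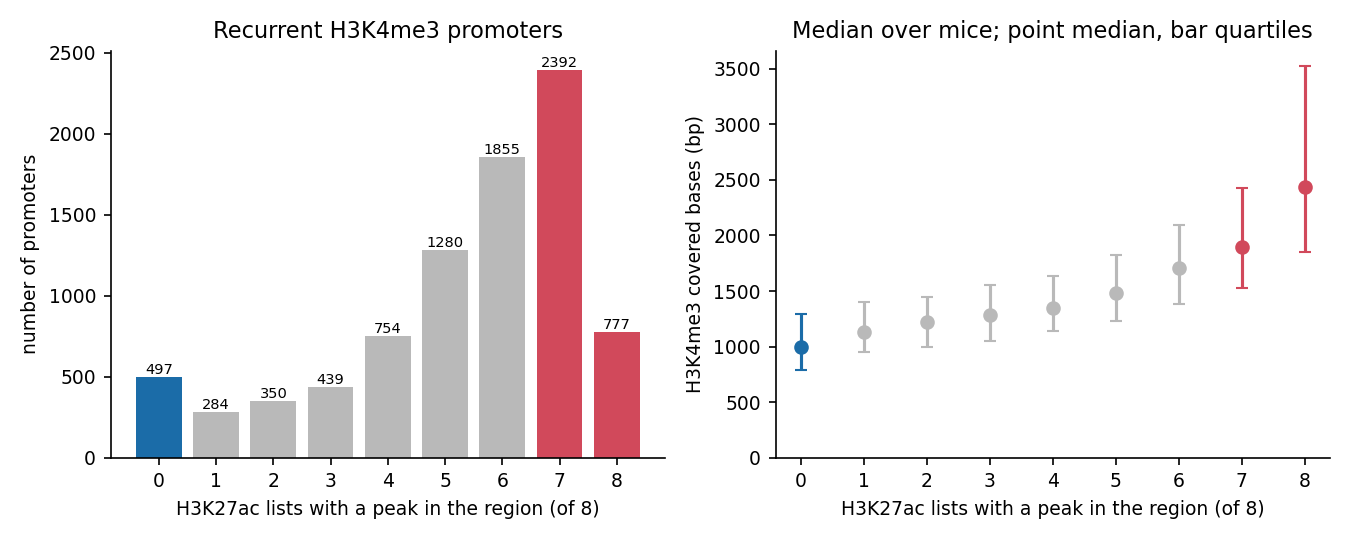
Left, number of H3K4me3 promoters with a peak in all 8 lists, by how many of the 8 H3K27ac lists had a peak in the region. Right, their H3K4me3 covered bases (bp, median over 8 mice), with the median as a point and the quartiles as bars. The median climbs from 996 bp with no H3K27ac list to 2440 bp with 8 lists.

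When all 8628 promoters were divided into 5 groups of near-equal number by median width, 18.8% of the narrowest group were H3K27ac-free, against 5.50%, 2.67%, 1.10% and 0.696% of the wider groups. By fold, the shares ran from 15.8% in the lowest group to 1.27% in the highest. Both measures went together with the lack of H3K27ac: within the narrowest group, 186 of 571 promoters of lowest fold were H3K27ac-free (32.6%), against 14 of 254 of highest fold (5.51%). These shares describe the selection and have no test.

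The shape around the start site was narrow on both sides. On average over mice, 86.4% of the H3K27ac-free promoters had H3K4me3 at the start site itself, close to the 86.9% of H3K27ac-bearing ones. At 500 bp upstream the values were 30.6% and 65.2%, at 500 bp downstream 67.3% and 93.9%, and at 1000 bp downstream 12.6% and 63.7%. In both sets the mark reached further into the gene than upstream. In the H3K27ac-bearing set, H3K27ac covered 50.2% of promoters at 500 bp upstream, 51.9% at the start site and 61.8% at 500 bp downstream.

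**Figure D3:**
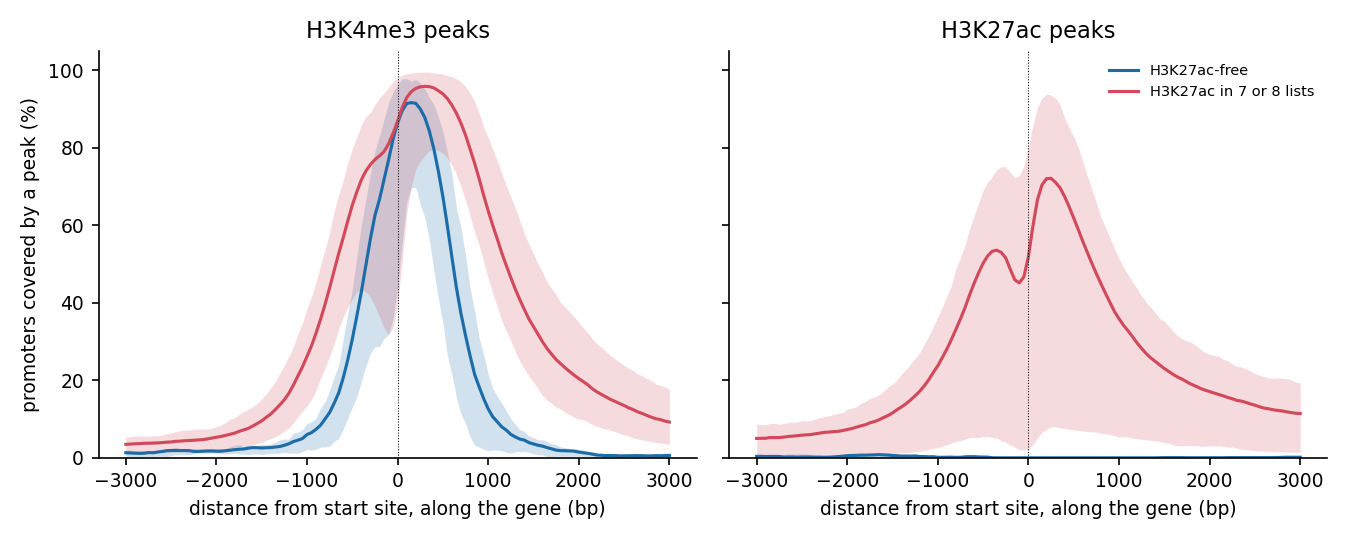
Share of promoters covered by an H3K4me3 peak (left) and an H3K27ac peak (right), by distance from the start site in bp with the gene to the right. Lines are means over 8 mice and shading runs from the lowest to the highest mouse. For H3K4me3 both sets meet near 86% at the start site, and the H3K27ac-free set falls off faster on both sides. H3K27ac of that set is near 0 by the way it was selected.

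The distance from the region to the nearest H3K27ac peak of any mouse had a median of 32656 bp, with quartiles of 12703 and 80526 bp. The selection excluded any overlap, and the distance was not compared with that of other promoters, so it is a description. No such peak lay within 100 bp of a region, 15 of 497 had one within 1000 bp (3.02%) and 52 within 5000 bp (10.5%). The 3 closest to the limit were Mal2, at 129 bp, Eif4enif1, at 274 bp, and Cenpt, which encodes a centromere protein, at 306 bp. Of the 497, 12 had their nearest start site just outside the region, by at most 687 bp.

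A second promoter with H3K27ac was found for few of these genes. For 21 of 497 (4.23%) another recurrent H3K4me3 promoter of the same gene had H3K27ac in at least 1 list, near the 4.44% of all 8628. Among the 21 were Kdm2b, which encodes a histone demethylase, Sox6, which encodes a developmental transcription factor, and the nuclear receptor genes Rarg and Rxrg. Kdm2b, Rarg and Rxrg were named after their values were seen. Start sites of opposite direction were also counted. An annotated transcript of the other strand began within 1000 bp at 14.7% of the 497, 26.5% of the H3K27ac-bearing set and 24.1% of all 8628. A protein-coding one did so at 24 of 497 (4.83%), 412 of 3169 and 961 of all 8628 (11.1%).

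A few promoters of the set were wide. Of the 497, 19 were as wide as the median H3K27ac-bearing promoter or wider (3.82%), and their fold was low, with a median of 16.4. The widest was Pcdh17, which encodes a protocadherin, a cell adhesion protein of the nervous system (region chr14:84442483-84449212). It covered 5008, 4380, 5034 and 5125 bp in mice 1, 2, 4 and 5, and 297, 2967, 4028 and 6730 bp in mice 7, 8, 10 and 11. Mouse 7 stood apart at the low end. For comparison, Ucp1, the thermogenic uncoupling protein of brown fat, covered 2218 bp in mouse 7 and 2240 to 5104 bp in the others. Pcdh10, also a protocadherin, covered 2862, 2608, 2525 and 2472 bp in mice 1, 2, 4 and 5, and 215, 1714, 707 and 2718 bp in mice 7, 8, 10 and 11. Mice 7 and 10 stood apart there at the low end.

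Vcan, which encodes the matrix proteoglycan versican, had a median of 2625 bp over a range of 1001 to 3659 bp. The other wide members were Mllt3 (3191 bp), a subunit of the super elongation complex, Tmem178b (3043 bp), Igf2bp2 (2751 bp), an RNA-binding protein, Sinhcaf (2723 bp), a subunit of the Sin3 deacetylase complex, Ptpn3 (2697 bp), a tyrosine phosphatase, the zinc finger repressor gene Klf12 (2611 bp) and Fam78a (2481 bp). The 3 narrowest were Aldh1b1 (376 bp), a mitochondrial aldehyde dehydrogenase, Tmem232 (383 bp) and Zfp991 (407 bp). Mouse 7 held the lowest width of 388 of the 497 promoters (78.1%). This was not particular to the set. Over all 8628 promoters the median width was also lowest in mouse 7, at 901 bp, against 1346 to 1970 bp in the other mice.

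The promoters of highest fold were other genes than the widest. Utp20, which acts in the processing of ribosomal RNA, had the highest median fold, 40.8, and covered 1379, 1328, 1002, 1254, 1112, 1480, 1391 and 1429 bp in mice 1, 2, 4, 5, 7, 8, 10 and 11. Its width in mouse 7 lay within the range of the others, whereas its fold there, 3.39, was the lowest, against 18.7 to 139 in the other mice. Heatr1 (fold 40.7), also of ribosome biogenesis, covered 944 to 1868 bp, and Exosc9 (40.5), a subunit of the RNA exosome, 1067 to 1395 bp. Next came Ppt1 (39.2), a lysosomal thioesterase, Hspa13 (38.5), Wdr55 (38.0), 4930430F08Rik (36.8), the RNA helicase gene Ddx18 (36.4), Ccndbp1 (34.9) and Kifap3 (34.6), an adaptor of the kinesin motor of cilia. Of all 497, 54 had a fold at or above the median of the H3K27ac-bearing set (10.9%).

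**Figure D4:**
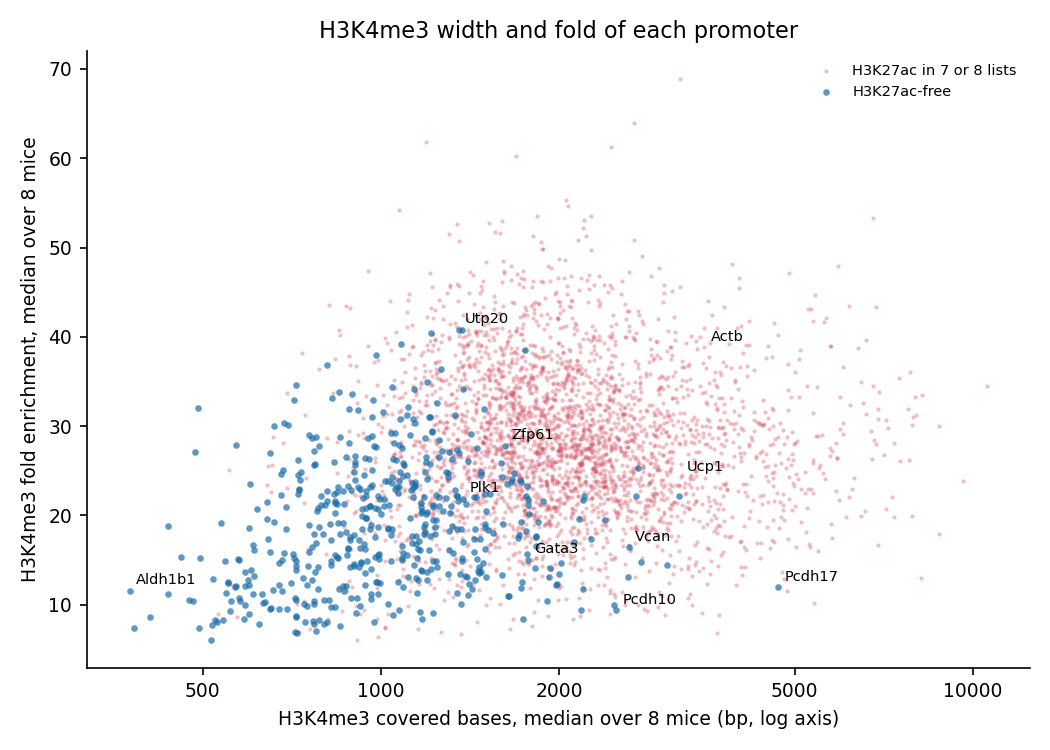
Median H3K4me3 covered bases over 8 mice (bp, log axis) against median H3K4me3 fold enrichment over 8 mice, 1 point for each of 497 H3K27ac-free promoters (larger points) and 3169 promoters with H3K27ac in 7 or 8 lists (smaller points). The H3K27ac-free points lie mostly toward the lower left, with a few wide and low ones such as Pcdh17 (4694 bp, fold 12.0) and narrower, high ones such as Utp20 (1354 bp, fold 40.8).

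By function, genes of cilia, cell division, ion channels and synapses, and protocadherins were H3K27ac-free more often than the 5.76% of all promoters. For cell division this was much less so at a stricter H3K4me3 limit. No gene of the respiratory chain or of ribosomal proteins was H3K27ac-free. The lists are compared with the 5.76% as a description. Of 76 recurrent promoters of genes of the cilium and basal body, the antenna-like organelle of most resting cells and its root, 16 were H3K27ac-free (21.1%) and 9 had H3K27ac in 7 or 8 lists. They included Ift122 (1220 bp), a part of intraflagellar transport, the kinesin gene Kif3c (1187 bp), Cep192 (1192 bp), a centrosome scaffold, and the Bardet-Biedl genes Bbs1, Bbs5, Bbs7 and Bbs12. Ift122 covered 1357, 1243, 1180 and 1232 bp in mice 1, 2, 4 and 5, and 254, 1122, 1207 and 1519 bp in mice 7, 8, 10 and 11. Its region also held the start of the DNA repair gene Mbd4.

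Of 74 promoters of cell division genes, 16 were H3K27ac-free (21.6%) and 19 had H3K27ac in 7 or 8 lists. Plk1, a mitotic kinase, covered 1422, 1335, 1778 and 1635 bp in mice 1, 2, 4 and 5. In mice 7, 8, 10 and 11 it covered 377, 1227, 1188 and 1419 bp. Ncapg (1347 bp), a condensin subunit, and Cdca7 (1346 bp) were the next widest. Aurkb, Ccnb1, Cdc25c and Top2a, which act in mitosis, were also in the set. With H3K4me3 peaks restricted to −log10 q of at least 5, the share of this list was 7.02%, against 4.00% of all promoters so selected, and that of the cilium list 19.3%.

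Of 331 promoters of C2H2 zinc finger genes named Zfp, Zkscan or Zscan, a large family that includes many repressors of transposons, 31 were H3K27ac-free (9.37%), with a median width of 865 bp. Zfp61 was the widest (1620 bp), followed by Zfp184 (1123 bp) and Zfp956 (1077 bp). The list of ion channels and synaptic receptors also took in other synaptic genes, such as the synaptotagmins (Syt) and neurexins. It gave 5 of 21 promoters (23.8%), among them Kcnk5 (1363 bp), Syt3 (940 bp) and Kcnn1 (835 bp). Protocadherins gave 3 of 7, which were Pcdh17, Pcdh10 and Pcdhgc4.

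Other lists were near the background. Developmental transcription factors gave 3 of 42 (7.14%), namely Gata3, Sall2 and Sox6. Genes of RNA modification gave 7 of 95 (7.37%), with Mettl1, Pus3 and Mettl2 the widest, and ubiquitin ligase adaptors 6 of 70 (8.57%), with Kbtbd8, Klhl3 and Fbxw9. Mitochondrial carriers gave 3 of 36, Slc25a40, Slc25a27 and Slc25a14, DNA repair 3 of 78, Ercc2, Xrcc5 and Lig4, clustered histones 1 of 22, Hist1h4j, and Zbtb genes 1 of 34, Zbtb22.

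None of 78 promoters of respiratory chain subunits was H3K27ac-free, and 75 had H3K27ac in 7 or 8 lists. None of 80 promoters of cytosolic ribosomal proteins and none of 80 of mitochondrial ribosomal proteins was H3K27ac-free either. Of these, 53 of the cytosolic and 33 of the mitochondrial ones had H3K27ac in 7 or 8 lists. Nor was any of the 9 brown adipocyte, 11 adipocyte and 8 endothelial marker promoters H3K27ac-free. Of macrophage and lymphocyte marker genes no promoter was in all 8 H3K4me3 lists, of muscle markers 1 was and of Schwann cell and nerve markers 2, and none of these 3 was H3K27ac-free. Fewer cells of a type and less of the mark per cell cannot be told apart in bulk tissue.

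**Figure D5:**
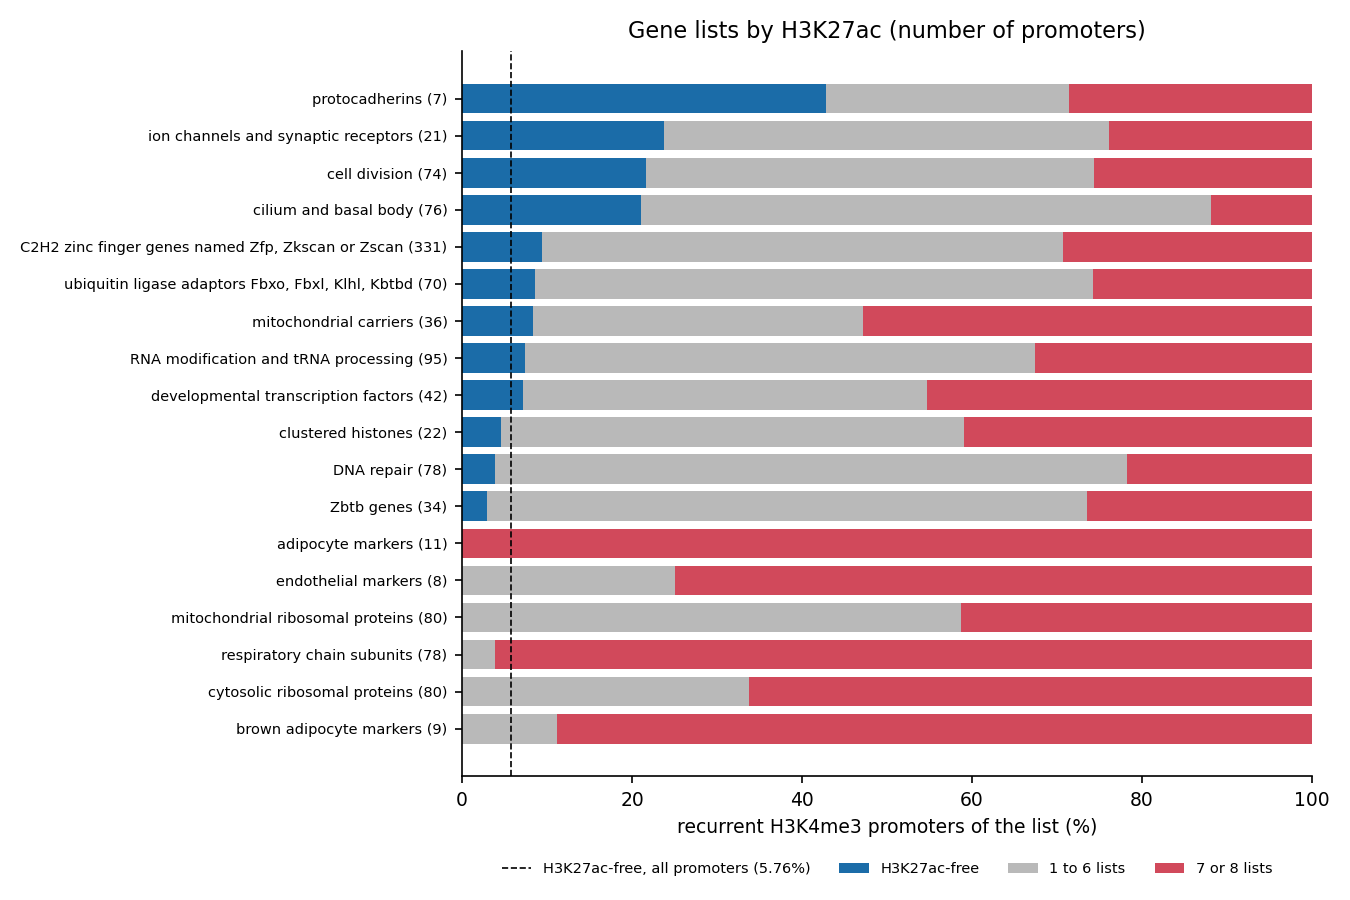
Share of each list's recurrent H3K4me3 promoters (%) with no H3K27ac list, with 1 to 6 lists and with 7 or 8 lists, for lists of at least 7 promoters, with the number of promoters in brackets. The dashed line is the H3K27ac-free share of all 8628 promoters, 5.76%. Protocadherins, ion channels, cell division and cilium genes lie above 20%, and 6 lists have no H3K27ac-free promoter.

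By position, the H3K27ac-free share was higher on the X chromosome than on any autosome. On X, 39 of 247 promoters were H3K27ac-free (15.8%), against 3.61% on chromosome 11 and 7.65% on chromosome 2, the lowest and highest of the autosomes. X held 7.85% of the H3K27ac-free set and 1.61% of the H3K27ac-bearing set. The H3K27ac-free promoters on X had a median fold of 14.8, against 18.8 elsewhere. The H3K27ac-bearing promoters were also lower on X, at 22.03 against 27.99 elsewhere, so the lower fold was not particular to the H3K27ac-free set. On Y, 4 promoters had H3K4me3 in all 8 lists, and none was H3K27ac-free. Neither the part of fold nor that of the number of X copies in the share on X was tested. Among the 39 were the retinal cilium genes Rpgr (1042 bp) and Rp2 (1013 bp) and the kinase gene Araf (1141 bp), named here after their values were seen.

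In 5 places at least 4 of the 497 followed each other within 500000 bp. On chromosome 2, 7 lay between 175337182 and 175966449, of which Zfp965, Zfp966 and Zfp968 are named as zinc finger genes, and 6 between 176485740 and 177398625, of which Zfp967 and Zfp973 are. Their widths ran from 573 to 1071 bp. The others held 4 each: Gm3055, Zfp781, BC024063 and Gm4924 on chromosome 10, Tex9, Pygo1, Dyx1c1 and Rab27a on chromosome 9, and Maged2, Gnl3l, Fgd1 and Tsr2 on X. These spans were drawn around the promoters themselves, so the share of H3K27ac-free promoters inside them is set by that choice, and the genes were named after their positions were seen. The start-site windows of several of these genes are near-identical copies, and reads from such copies cannot be assigned with certainty. In 21 of the 497 (4.23%), at least 50% of the 20-base words of the start-site window also occurred in the window of another recurrent promoter, against 1.17% of all 8628. The windows of Zfp781, printed above, and of its neighbour Gm3055 were identical at 300 of 300 bases. Without the 21, the median width of the remaining 476 was 1027 bp, against 996 bp with them.

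In sequence the H3K27ac-free promoters were somewhat poorer in G and C. Over the 300 bases around the start site, GC content had a median of 59.0%, against 61.3% in the H3K27ac-bearing set and 62.0% over all 8628. CpG numbered 19 per window, against 22 and 23. The CpG ratio, which sets the number of CpG against that expected from the content of C and G, was 0.730, 0.798 and 0.811. A ratio under 0.4 was found in 10.1%, 9.37% and 7.09%, so that few of these promoters lacked CpG. The listed zinc finger members had a median GC content of 49.3% and a CpG ratio of 0.564.

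CCAAT was found in either orientation in 245 of the 497 windows (49.3%), against 35.6% of the H3K27ac-bearing set and 36.9% of all 8628. It was more frequent than in all promoters within each range of GC content, at 58.9% against 45.7% under 55%, 49.3% against 40.9% from 55% to under 65%, and 37.0% against 28.0% above. Without the listed zinc finger genes and the near-identical copies it was at 46.9%, against 36.5% of all promoters so reduced. It was present at 13 of 16 H3K27ac-free cilium promoters and 39 of all 76, and at 11 of 16 H3K27ac-free cell division promoters and 41 of all 74. Of the 7 printed sequences of the set it occurs in 6, and it is not in those of Mapk11 and Ucp1.

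The other 7 motifs searched had lower shares in these windows than in all, some of them by a small margin. The differences were not tested. Nor were these 7 motifs compared within ranges of GC content, whose median was lower in this set, at 59.0% against 62.0% over all 8628. GGGCGG, the GC box, was in 59.0% of H3K27ac-free windows and 68.3% of all, and CCGGAAG, the core of ETS sites, in 17.9% and 21.5%. TATAAA was in 5.03% and 5.68%, CACGTG in 9.46% and 10.7%, ATGGCGGC in 5.43% and 6.57%, TGACGTCA in 2.21% and 3.79%, and GCGCATGCG in 2.41% and 3.98%. All were searched on both strands, each motif counted once per window whatever its overlap with others. A match is a description of the letters and not of binding.

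The other marks were read in a fixed window of 1000 bp on each side of the start site, which does not depend on the width of the region. H3K4me1 was seen less often at H3K27ac-free promoters. Its peaks were at 5.63% of them in mouse 2, 1.01% in mouse 4, 6.84% in mouse 5, 3.62% in mouse 8, 0.805% in mouse 11 and none in mice 1, 7 and 10. The H3K27ac-bearing set had 17.7%, 9.44%, 25.3%, 9.34% and 3.79% in mice 2, 4, 5, 8 and 11, and 0.158% in mouse 1 and none in mice 7 and 10, whose H3K4me1 lists held 12 and 18 peaks. The share was lower in 6 mice and equal at 0 in the other 2, with a mean difference of -5.97 ± 6.69 percentage points (SD, n = 8). In an exact sign-flip permutation test within mice, two-sided, p was 0.0312, and 0.0625 after Benjamini-Hochberg adjustment over 2 marks. With 2 mice at 0, 0.0312 is the smallest p that this test could give, so the threshold of 0.05 could not be passed after adjustment beside the p of 1 for H3K27me3. In at least 1 list, 68 of 497 had an H3K4me1 peak (13.7%), against 35.5% of all 8628 promoters. Ccndbp1 and Pars2 had it in 3 lists, the most of any member.

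H3K27me3 was detected at these promoters in mouse 5, whose list was by far the longest with 6428 peaks, against 20 to 1392 in the other mice. There, 14 of 497 H3K27ac-free promoters (2.82%) and 7 of 3169 H3K27ac-bearing ones (0.221%) had a peak, and in the other 7 mice no H3K27ac-free promoter had one. Over the 8 mice the difference was 0.321 ± 0.919 percentage points (SD, n = 8), higher in 1 mouse and lower in 1, with p = 1 in the exact sign-flip permutation test and 1 after adjustment. With 6 mice at 0 the smallest p possible was 0.5, so this test could not tell the sets apart. Over all 8628 promoters 0.487% had H3K27me3 in at least 1 list. The 10 with the highest −log10 q of that peak were Mapk11, Extl1, Ap1s3, H2-Ab1, Nrn1, Rtn4rl2, Tll1, Lrrc1, Tmem151a and Cdc20b, and Gata3 was also among the 14. H2-Ab1, which encodes a chain of the class II antigen-presenting complex, had just 473 bp of H3K4me3 and a CpG ratio of 0.165. Gata3, which directs T cell fate and opposes fat cell differentiation, covered 1614, 1758, 2573 and 2817 bp in mice 1, 2, 4 and 5, and 620, 1791, 1529 and 2543 bp in mice 7, 8, 10 and 11.

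Mouse 7 decided how many promoters were selected. Its H3K4me3 list was the shortest, and without mouse 7 the same selection over 7 mice gave 1479 H3K27ac-free promoters of 10918 (13.5%). Lead genes of 976 of these were not among those of the 497. The 1479 had a median width of 1007 bp, against 1924 bp at promoters with H3K27ac in 6 or 7 of 7 lists, and a median fold of 13.6 against 29.9. H3K27me3 was then at 164 of 1479 in mouse 5 (11.1%), at 23 in mouse 11 (1.56%) and at 1 in mouse 4, against 25 of 5372 (0.465%), 1 and 1 at H3K27ac-bearing promoters. The mean difference over the 7 mice was 1.74 percentage points, and the adjusted p of the exact sign-flip permutation test was 0.25. With peaks in 3 mice, each higher in the H3K27ac-free set, 0.25 is the smallest p that the test could give.

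The added promoters included wide ones of developmental genes. Egr2 (3257 bp), Egr3 (3026 bp), Gata6 (2941 bp) and Foxc1 (2608 bp) were among the 10 widest and had H3K27me3 in at least 1 list, as did Auts2. The other 5 of the 10, Ntn1, Epha4, Sox12, Casz1 and Epha7, had it in none. Without mouse 7, developmental transcription factors gave 19 of 87 promoters (21.8%), ion channels and synaptic receptors 30 of 58 (51.7%), protocadherins 7 of 13 (53.8%), cell division genes 30 of 98 (30.6%) and cilium genes 25 of 91 (27.5%), against the 13.5% of all promoters. Zinc finger genes, at 53 of 369 (14.4%), were then close to that share, and X, at 91 of 338 (26.9%), was above it. Respiratory chain subunits gave 1 of 80, Cox6b2, and cytosolic and mitochondrial ribosomal proteins none.

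Between conditions, the width of the H3K27ac-free set relative to the H3K27ac-bearing set was compared within each library. This ratio is not free of the library: mouse 7, with the narrowest peaks in both sets, also had the lowest ratio. The log2 ratio was -0.92, -0.97, -0.86 and -0.83 in NCD mice 1, 2, 4 and 5, and -1.45, -1.09, -1.15 and -1.03 in HFD mice 7, 8, 10 and 11. All 4 HFD mice lay below all 4 NCD mice, and the difference of means was -0.28. Its p in an exact permutation test of 4 against 4 mice, two-sided, was 0.0286, the smallest that this test can give, and 0.229 after adjustment over 8 tests. HFD mice 7, 8 and 10 also had the shortest H3K4me3 lists (13517, 19079 and 17195 peaks, against 20304 to 24104 in the other mice) and the lowest median folds of the H3K27ac-bearing set (6.54, 15.0 and 15.9, against 27.5 to 92.2), and the part of these in the difference was not tested. Over 8 tests, a single comparison at the smallest p comes to 0.229. Without mouse 7, in the selection and in the values, the difference was -0.36, with an adjusted p of 0.229 in the exact permutation test.

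Single promoters were followed by dividing each width by the median of all 8628 promoters in that mouse. Of the 497, 49 (9.86%) had all 4 NCD values above all 4 HFD values, against 5.56% of all 8628, and 3 (0.604%) had all HFD values above, against 6.03%. The 3 were Prdm1, Zfp677 and 4930550C14Rik, and the 49 included Pcdh10, Vcan, Sox6 and Zfp61. Prdm1, which encodes a repressor of transcription, and the other 2 were named after their values were seen. Without mouse 7 the counts were 66 (13.3%) against 7.55%, and 6 (1.21%) against 8.11%. These counts come from the same widths as the ratio between diets. All 8628 promoters had a median width of 1609 bp, against 996 bp in the 497, and were not matched to them in width. HFD mice 8 and 10 also had shorter H3K4me3 lists than every NCD mouse, and the part of list length was not tested. For temperature, 15 had all 4 cold values above all warm ones (3.02%, against 2.4% of all promoters) and 11 the reverse (2.21%, against 1.82%).

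None of the other differences between conditions passed the threshold. The width ratio was -0.97 ± 0.15 in cold and -1.11 ± 0.24 in warm mice (SD, n = 4 each), with an adjusted p of 0.876 in the exact permutation test. The fold ratio differed by -0.07 between cold and warm and by 0.09 between HFD and NCD, with an adjusted p of 0.876 for each in the exact permutation test. The H3K4me1 difference was -2.18 ± 2.75 percentage points on HFD and -9.77 ± 7.64 on NCD (SD, n = 4 each), with an adjusted p of 0.457 in the exact permutation test, and both HFD mice 7 and 10 had nearly empty lists. The interaction of temperature and diet in the width ratio was -0.07, with p = 0.886 in an exact permutation test over all assignments of mice to the 4 conditions.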

How the data were processed

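Of 40 samples, 32 ChIP libraries (8 mice, 4 marks) had a peak list used here, and the inputs entered through those lists. According to the study's methods, the authors filtered reads with cutadapt, aligned them to GRCm38 with bowtie2 and called peaks with macs2 against the input, 1 list per library. No version or calling threshold is stated in the sources used. The deposited columns used were the fold enrichment, a ratio of ChIP to local background, and −log10 q. Read depth is unknown.

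Start sites were those of protein-coding transcripts in GENCODE M21 (basic set). An overlap was at least 1 bp. A region was named by the start nearest to the median summit of its highest peaks. Coordinates are 1-based. Tests were exact and two-sided: sign flips within mice for marks (256 flips; with mice at 0, the smallest p was 0.0312 for H3K4me1 and 0.5 for H3K27me3), and 4 against 4 mice for conditions (70 assignments, smallest p 0.0286), with Benjamini-Hochberg adjustment over 2 and 8 tests and a threshold of 0.05. Both sets of promoters were read in the same library, so the mouse is the block. p-values measure the spread between these libraries. The scripts (Python 3.11.15, pandas 2.3.3) were tested on simulated peaks.

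Genes named were the 10 widest and the 10 of highest fold, up to 10 with H3K27me3, up to 3 per gene list, the 3 narrowest, 3 on each side of the limit, and Ucp1, Cidea, Pparg and Actb. Genes outside that rule were named after their values were seen. The members and lists were chosen with earlier results of these data known.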

Additional observations from a re-analysis of the deposited data

Results flagged for a closer look

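The H3K27me3 share difference of mouse 5, H3K27ac-free minus H3K27ac-bearing promoters, was 2.60 percentage points. It lay far from the other mice, whose values were 0 or -0.03, and was set apart among all 8 mice, among the 4 cold mice and among the 4 NCD mice. These are 3 views of the same value, out of 18 groups examined. A rate of 1 in 20 by chance does not hold here, because the other values were all 0 or -0.03. Beside such values almost any single higher value is set apart. The H3K27me3 list of mouse 5 held 6428 peaks, and the next longest, of mouse 11, 1392. The part of list length in this difference was not tested.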

How the results depend on the processing

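The number of H3K27ac-free promoters depended on the selection. It was 1501 with H3K4me3 in at least 7 lists, 899 with H3K27ac peaks of −log10 q of at least 5, and 245 with that limit on H3K4me3 peaks, which kept 49.2% of the 496 lead genes. It was 2245 without mice 7 and 10, chosen after seeing the data, and 499 to 1479 with each mouse left out in turn. The width ratio was negative throughout, at -1.35 against promoters with H3K27ac in all 8 lists and -1.04 to -0.95 with each mouse left out. The fold ratio was -1.05 with at least 7 lists, -0.40 with the H3K4me3 limit, -1.37 without mice 7 and 10, -1.07 to -0.56 with each mouse left out, and -19.8 points as a percentile.

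Without the replicate block, the H3K4me1 difference was -5.97 with an adjusted p of 0.204 in the exact permutation test, and the H3K27me3 difference 0.321 with 1. With each mouse left out in turn, H3K4me1 ranged from -6.75 to -3.82 and H3K27me3 from -0.0045 to 1.74, the lowest without mouse 5 and the highest without mouse 7. Read as overlap with the H3K4me3 region, which differs in width between the sets, the H3K4me1 difference was -15.4, and -0.886 when H3K4me1 peaks under a −log10 q of 5 were dropped. Without mice 7 and 10 the H3K27me3 difference was 3.76. In the selections tried, at most 4 mice had an H3K27me3 difference other than 0, for which the smallest p is 0.125.

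Between conditions no alternative passed the threshold, which a single comparison among 8 tests of 4 against 4 mice cannot pass after adjustment. The interaction was 0.20 with at least 7 lists and -0.28 to 0.29 with each mouse left out. Against all 8 H3K27ac lists, the fold ratio differed by 0.056 between cold and warm and by -0.036 between HFD and NCD, and it ranged from -0.16 to 0.048 (positive without mouse 7, 0.048, and without mouse 10, 0.014) and from 0.03 to 0.19 with each mouse left out. H3K27me3 ranged from -0.011 to 3.05 for cold and -2.16 to 0.011 for HFD, and H3K4me1 from -5.28 to 0.29 for cold, turning without mouse 5 in each case. The causes were not tested.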
